A study of Mus musculus with 9 samples.

Results

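Mitosis and G2/M genes are a list of 35 genes that act between the G2 phase of the cell cycle and the division of the cell: cyclins and CDK1, mitotic kinases, the spindle checkpoint, kinetochore and spindle proteins, and proteins of mitotic chromosomes. They were picked by gene name, with earlier results of these data known. Genes named as kinesins (Kif) were left out of the list. A gene was measured where a row of the array carried its symbol alone, and where it had several such rows the brightest was taken. Of the 35 genes, 34 were among the 19938 genes tested, and Ccnb1 was not analysed here. The RNA came from immortalized mouse embryonic fibroblasts of ICR background and was hybridised to Affymetrix Mouse Gene 1.0 ST arrays, in 3 groups of 3 arrays each. Adenovirus delivered a short hairpin RNA (shRNA) against RPA1 to one group, against HSF1 to another, and a scrambled control shRNA to the last. All 9 samples took virus at 1e8 pfu per ml for 2 h and then grew for 70 h at 37 degrees in medium with 10% serum, so the adenovirus was common to the controls as well. The study asked whether HSF1, the main heat shock transcription factor, and RPA1, the largest protein of the RPA complex that coats single-stranded DNA, govern gene expression together. Whether the samples of a group were grown as separate cultures is not given in the labels.

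As background, a cell enters mitosis when CDK1 bound to cyclin B is freed of its inhibitory phosphates by CDC25 phosphatases. Aurora and Polo-like kinases then drive centrosome maturation and spindle assembly, the spindle checkpoint holds the cell until every chromosome is attached, and the anaphase-promoting complex (APC/C) ends mitosis by marking securin and cyclins for destruction. Most genes of these steps are transcribed in a wave in G2. In quiescent and early cycling cells the DREAM complex represses them through a promoter element called the cell cycle genes homology region (CHR), and later B-MYB and FOXM1 activate them through the same element with the help of NF-Y at CCAAT boxes. Their messages are therefore known as markers of proliferating cells.

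Promoter sequence was available for 30 of the 35 genes, from the RefSeq table on build GRCm38.p6, as windows of 300 bases that run from 250 bases before to 50 bases after a gene's first listed start. A CHR (TTTGAA or TTCGAA, on either strand) was in the windows of 22 of the 30, 73.3%, and in 19.4% of the windows of 27025 genes. A CCAAT box (CCAAT, on either strand) was in 23 of 30, 76.7%, and in 37.9% of all windows. An E2F site (TTTGGCGC, TTTCCCGC, TTTCGCGC or TTTGCCGC, on either strand) was found for Cdk1 alone, 3.33% of the members and 2.32% of all windows. A heat shock element of 3 units, GAA and TTC in turn with any 2 bases between them, on either strand, was in 0 of the 30 windows and in 0.529% of all windows. These matches describe the letters in the windows only. The stretches of 250 bases before the start are shown for the members with the largest called falls and rises under RPA1 shRNA, whose values are given below. Capitals mark CCAAT boxes and any CHR.
Cenpf, chr1:189688087-189688336, minus strand: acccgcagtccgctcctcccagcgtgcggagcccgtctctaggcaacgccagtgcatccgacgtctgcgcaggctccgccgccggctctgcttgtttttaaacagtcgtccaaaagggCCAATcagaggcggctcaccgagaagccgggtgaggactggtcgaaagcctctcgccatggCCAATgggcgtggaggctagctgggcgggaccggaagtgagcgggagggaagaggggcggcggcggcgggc
Cdc25b, chr2:131186698-131186947, plus strand: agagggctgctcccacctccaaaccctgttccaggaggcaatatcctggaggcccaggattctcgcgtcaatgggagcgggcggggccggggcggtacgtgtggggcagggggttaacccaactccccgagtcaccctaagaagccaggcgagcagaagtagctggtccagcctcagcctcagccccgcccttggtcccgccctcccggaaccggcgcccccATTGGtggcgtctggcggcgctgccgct
Aurka, chr2:172370571-172370820, minus strand: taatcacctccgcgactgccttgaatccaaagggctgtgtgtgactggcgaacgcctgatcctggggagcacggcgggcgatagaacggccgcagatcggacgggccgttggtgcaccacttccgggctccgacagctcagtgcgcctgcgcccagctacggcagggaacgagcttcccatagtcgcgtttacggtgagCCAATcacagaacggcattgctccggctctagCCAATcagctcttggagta
Bub3, chr7:131560120-131560369, plus strand: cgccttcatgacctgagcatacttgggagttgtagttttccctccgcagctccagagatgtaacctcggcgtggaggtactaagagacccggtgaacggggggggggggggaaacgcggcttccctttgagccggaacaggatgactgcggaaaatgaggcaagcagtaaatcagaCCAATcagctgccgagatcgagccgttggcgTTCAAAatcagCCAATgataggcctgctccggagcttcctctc

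The CHR of 8 members that passed the test under RPA1 shRNA is shown next, with the CHR in capitals and up to 10 bases to each side, because it is the element that the DREAM complex and its successors bind. All 8 windows held a CCAAT box as well. The CHR lay within 50 bases of the start in 7 of them and 98 bases before the start in Mki67, and in Bub3 and Top2a it ran in the opposite orientation.
Cenpf, chr1:189688069-189688094, minus strand: cggcgggcagTTTGAAtcgctcgtgc
Cdc25b, chr2:131186945-131186970, plus strand: gctgttatttTTCGAAtatataagga
Bub1b, chr2:118598241-118598260, plus strand: agacgttaaaTTTGAAactt
Mki67, chr7:135716462-135716487, minus strand: gccgttttggTTTGAAtcgggcgggc
Top2a, chr11:99024197-99024222, minus strand: tagataaaggTTCAAAtgaaactagg
Ccnb2, chr9:70421535-70421560, minus strand: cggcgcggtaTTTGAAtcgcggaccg
Aurka, chr2:172370523-172370548, minus strand: aaggagaaccTTTGAAttgtaacggc
Bub3, chr7:131560317-131560342, plus strand: gccgttggcgTTCAAAatcagccaat
The window of Nusap1, the other member that passed under RPA1 shRNA, held no CHR. Of the 8 members that passed under HSF1 shRNA, 6 had a window and 3 of these held a CHR (Cdc25b, Aurka and Mki67, shown above), while those of Melk, Nek2 and Cenpe held none. Of the 20 members that passed in neither comparison with control, 17 had a window and 14 of these held a CHR.

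All values are log2 signals, so a difference of 1 is a doubling of the signal. Rpa1 itself read 9.42, 9.34 and 9.40 on the RPA1 shRNA arrays, 11.35, 11.33 and 11.30 on the HSF1 shRNA arrays and 11.40, 11.42 and 11.41 on the control arrays, a 4.05-fold fall under its own shRNA (-2.02 ± 0.04, limma adjusted p = 3.5e-08). The level of Hsf1 was not analysed here, so its knockdown was not checked. RPA1 shRNA array 3 differed less from control than arrays 1 and 2 did. Over the 408 genes that differed from control by at least 2-fold on both of the others, its own difference was a median 0.685 times theirs. The same ratio was 1.065 for array 1 over 207 such genes and 1.038 for array 2 over 208. Markers of the fibroblast moved too. Of 9 fibroblast markers, 0 were higher and 5 lower under RPA1 shRNA, and their mean level was 10.10 to 10.40, against 10.71 to 10.76 in controls. Under HSF1 shRNA 1 was higher and 3 lower, with a mean of 10.62 to 10.75. That is 55.6% of the fibroblast markers called under RPA1 shRNA and 44.4% under HSF1 shRNA, against 30.1% and 16.1% of all genes. Of 6 macrophage and other blood markers, 2 were higher under RPA1 shRNA, Cd68 by 2.06 and Csf1r by 0.35, and 1 was higher under HSF1 shRNA, Csf1r by 0.27. Their mean level was 7.28 to 7.33 under RPA1 shRNA, 7.04 to 7.08 under HSF1 shRNA and 6.76 to 6.92 in controls. Of the blood markers 33.3% and 16.7% were called under RPA1 and HSF1 shRNA, near the 30.1% and 16.1% of all genes. Ptprc, the common leukocyte marker, read 6.04 to 6.18 under RPA1 shRNA, 6.05 to 6.14 under HSF1 shRNA and 5.90 to 6.05 in controls and was called in neither. The epithelial marker Krt14 (0.61 and 0.28), the muscle marker Des (0.63 and 0.50), the neuronal marker Tubb3 (0.33 and 0.52) and the endothelial marker Pecam1 (0.17 and 0.20) were called higher under RPA1 and HSF1 shRNA. Krt14 was the only call against control among 6 epithelial markers, Des among 4 muscle markers and Pecam1 among 5 endothelial markers. Of 4 neural markers, Sox10 was also higher under RPA1 shRNA (0.41), Map2 was lower there (-0.21) and Gfap was higher under HSF1 shRNA (0.24). Of 3 adipocyte markers, Fabp4 alone was called against control, higher under HSF1 shRNA (0.47, limma adjusted p = 0.0046) and not called under RPA1 shRNA. No array value is 0, so these signals cannot be read as presence or absence. The part of these markers in the results below was not tested.

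Most of the 34 measured genes on the list differed little from control under either shRNA. A gene was called when limma's adjusted p over all 19938 genes was under 0.05. Under RPA1 shRNA 2 of the 34 were called higher and 7 lower, 26.5% of the list, against 30.1% of all genes tested (15.4% higher and 14.7% lower). Their median difference was -0.05, against 0.02 over all genes, and the median size of the difference was 0.08, against 0.12. None of the 34 was called with a change of 1.5-fold or more, against 7.08% of all genes. At an unadjusted p under 0.05, 14 of the 34 passed. The 95% interval of the difference lay within 1.5-fold in either direction for 32 of the 34, all but Cenpf and Cdc25b, against 84.3% of all genes. Leaving out RPA1 shRNA array 3 gave 11 lower, and leaving out control array 3 gave 4 lower. Over all 19938 genes the calls moved too, from 5998 to 7245 and to 4642 in the same order. The count higher was 0 without control array 1 or control array 3, and 1 without any single other array. RNA from a whole culture was measured, so fewer cells in G2 and M and less of a message per cell cannot be told apart.

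Under HSF1 shRNA 2 of the 34 were called higher and 6 lower, 23.5% of the list, against 16.1% of all genes tested (9.89% higher and 6.21% lower). Over all genes, 61.4% of the calls were higher as deposited, 52% after quantile scaling and 48.1% after median scaling, while the members' calls were 2 higher and 7 lower under both scalings. The members' median difference was 0.01, against 0.04 over all genes, and the median size was 0.10, against 0.09. Cdc25b alone passed 1.5-fold, 1 of 34, against 2.35% of all genes. The interval lay within 1.5-fold for 33 of the 34, against 91.7% of all genes. The count higher was 1 without control array 1, 2 or 3 or without HSF1 shRNA array 1 or 3. Over all genes, 1953 to 2455 were called without any one of these arrays, against 3210 with every array.

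**Figure D1:**
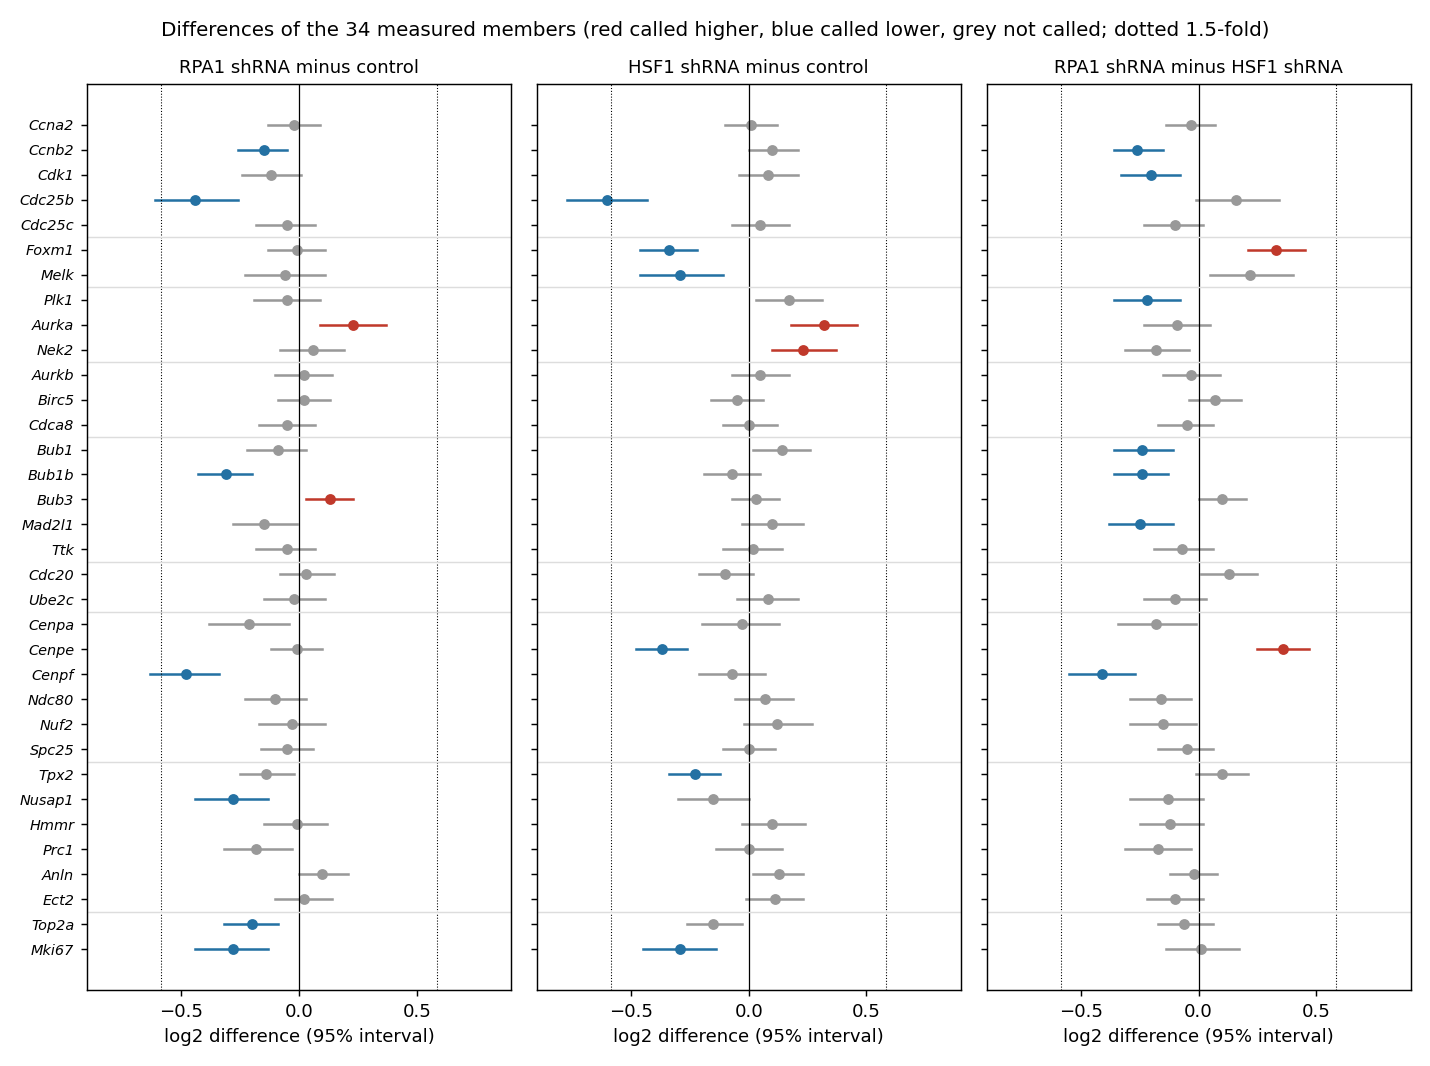
Log2 difference (x axis) with its 95% interval for each of the 34 measured genes, grouped by role from cyclins at the top to chromosome proteins at the bottom, in the comparisons RPA1 shRNA minus control, HSF1 shRNA minus control and RPA1 shRNA minus HSF1 shRNA. Red marks genes called higher, blue genes called lower and grey the rest, and most intervals stay between the dotted lines at 1.5-fold, with Cenpf and Cdc25b reaching past them under RPA1 shRNA.

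Of the 5 measured cyclin, CDK1 and CDC25 genes on the list, the phosphatase gene Cdc25b differed most from control under both shRNAs. Cdc25b read 9.98, 10.13 and 10.14 under RPA1 shRNA, 10.05, 9.87 and 9.83 under HSF1 shRNA and 10.59, 10.54 and 10.42 in controls. Every knockdown array lay below every control array, and the knockdowns overlapped each other. The difference from control was -0.44 ± 0.08 under RPA1 shRNA (1.35-fold, limma adjusted p = 0.0021) and -0.60 ± 0.08 under HSF1 shRNA (1.52-fold, adjusted p = 0.0010). Both comparisons use the same 3 control arrays. Its relative Cdc25c, which acts on the same phosphates, differed by -0.05 ± 0.05 and 0.05 ± 0.05 and passed in neither.

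Ccnb2, which encodes cyclin B2, read 12.58, 12.51 and 12.58 under RPA1 shRNA, 12.83, 12.77 and 12.84 under HSF1 shRNA and 12.68, 12.75 and 12.70 in controls. The RPA1 shRNA arrays lay below the controls and the HSF1 shRNA arrays above them, without overlap. Against control Ccnb2 fell by 0.15 ± 0.05 under RPA1 shRNA (limma adjusted p = 0.030), and it was 0.10 ± 0.05 higher under HSF1 shRNA, which did not pass (0.18). The RPA1 shRNA call was lost without any single control array (0.052 to 0.10) and without RPA1 shRNA array 1 (0.059) or 2 (0.093), and under median scaling (0.061). Cdk1, the kinase itself, read 12.90, 12.89 and 13.05 under RPA1 shRNA, 13.19, 13.14 and 13.11 under HSF1 shRNA and 13.05, 13.07 and 13.08 in controls. RPA1 shRNA array 3 alone of its group sat at the control level. The difference under RPA1 shRNA was -0.12 ± 0.06 (adjusted p = 0.15), and without that array it was -0.17 (0.017). Cyclin A2, encoded by Ccna2, differed by -0.02 ± 0.05 under RPA1 shRNA and by 0.01 ± 0.05 under HSF1 shRNA, with 95% intervals of -0.13 to 0.09 and -0.10 to 0.12.

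Foxm1, which encodes the transcription factor that activates this gene programme in G2, read 11.75, 11.73 and 11.71 under RPA1 shRNA, 11.46, 11.38 and 11.37 under HSF1 shRNA and 11.83, 11.70 and 11.70 in controls. The HSF1 shRNA arrays lay below all others, and the RPA1 shRNA arrays lay among the controls. Foxm1 fell by 0.34 ± 0.05 under HSF1 shRNA (1.27-fold, limma adjusted p = 0.0031), and the difference under RPA1 shRNA was -0.01 ± 0.05 (0.89). Melk, a protein kinase gene with high expression in dividing cells, read 10.00, 9.99 and 10.05 under RPA1 shRNA, 9.97, 9.64 and 9.76 under HSF1 shRNA and 10.04, 10.13 and 10.05 in controls. HSF1 shRNA array 1 lay just under the controls, well above the other HSF1 shRNA arrays. Melk fell by 0.29 ± 0.08 under HSF1 shRNA (adjusted p = 0.032), a call lost without any single control array (0.074 to 0.11) and without HSF1 shRNA array 2 or 3 (0.10 each).

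The mitotic kinase Aurora A, which matures centrosomes and builds the bipolar spindle, is encoded by Aurka. It read 11.33, 11.40 and 11.56 under RPA1 shRNA, 11.54, 11.50 and 11.53 under HSF1 shRNA and 11.20, 11.24 and 11.16 in controls. All knockdown arrays lay above all control arrays, and RPA1 shRNA array 3 reached the HSF1 shRNA level. Aurka rose by 0.32 ± 0.06 under HSF1 shRNA (limma adjusted p = 0.0076) and by 0.23 ± 0.06 under RPA1 shRNA (1.18-fold, adjusted p = 0.018), and the RPA1 shRNA call was lost without control array 1 (0.051) or control array 3 (0.070). Nek2, a kinase that separates the centrosomes, read 10.57, 10.66 and 10.62 under RPA1 shRNA, 10.87, 10.68 and 10.83 under HSF1 shRNA and 10.61, 10.56 and 10.51 in controls. The HSF1 shRNA arrays lay above the rest, with array 2 the lowest of them. Nek2 rose by 0.23 ± 0.06 under HSF1 shRNA (adjusted p = 0.028), and this call was lost without any single control array (0.051 to 0.11) and without HSF1 shRNA array 1 (0.090) or 3 (0.098). Plk1, the Polo-like kinase of mitotic entry, read 12.28, 12.45 and 12.50 under RPA1 shRNA, 12.62, 12.64 and 12.65 under HSF1 shRNA and 12.45, 12.52 and 12.43 in controls. Its HSF1 shRNA arrays were all above the controls, but the difference of 0.17 ± 0.06 did not pass (0.099). Without RPA1 shRNA array 1 it did (0.047).

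The 3 listed genes of the chromosomal passenger complex, which corrects faulty attachments at the centromere, showed no change that passed in any comparison. The kinase gene Aurkb differed from control by 0.02 ± 0.05 under RPA1 shRNA and 0.05 ± 0.05 under HSF1 shRNA. Birc5, which encodes survivin, differed by 0.02 ± 0.05 and -0.05 ± 0.05, and Cdca8, which encodes borealin, by -0.05 ± 0.05 and 0.00 ± 0.05. The 95% intervals of these 3 genes lay between -0.17 and 0.17 in both comparisons with control. Neither APC/C partner passed. Cdc20, its coactivator, differed by 0.03 ± 0.05 and -0.10 ± 0.05, and Ube2c, the ubiquitin-conjugating enzyme that serves it, by -0.02 ± 0.06 and 0.08 ± 0.06.

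In the spindle assembly checkpoint 1 of 5 genes fell and 1 rose under RPA1 shRNA, and 0 of 5 passed under HSF1 shRNA, where 1 had an unadjusted p under 0.05. That is 40% and 0% called, against 30.1% and 16.1% of all genes. Bub1b encodes BUBR1, which inhibits CDC20. It read 10.95, 10.99 and 10.95 under RPA1 shRNA, 11.27, 11.16 and 11.18 under HSF1 shRNA and 11.32, 11.30 and 11.21 in controls. All RPA1 shRNA arrays lay below all others. Bub1b fell by 0.31 ± 0.05 under RPA1 shRNA (1.24-fold, limma adjusted p = 0.0015), and the difference under HSF1 shRNA was -0.07 ± 0.05 (0.43). Bub3, the shared binding partner of BUB1 and BUBR1, went the other way. It read 11.69, 11.74 and 11.73 under RPA1 shRNA, 11.66, 11.59 and 11.62 under HSF1 shRNA and 11.62, 11.58 and 11.58 in controls. The RPA1 shRNA arrays lay above all others, and the HSF1 shRNA and control arrays overlapped. The rise of 0.13 ± 0.04 under RPA1 shRNA was at the threshold (adjusted p = 0.049) and was lost without any single array, of whichever group (0.051 to 0.14). Bub1 and Mad2l1, which encodes MAD2, did not pass against control (-0.09 ± 0.05 and -0.15 ± 0.06 under RPA1 shRNA), though the Bub1 difference of 0.14 ± 0.05 under HSF1 shRNA (0.12) passed without RPA1 shRNA array 3 (0.049). Mad2l1 read 12.46, 12.45 and 12.65 under RPA1 shRNA, 12.77, 12.79 and 12.74 under HSF1 shRNA and 12.64, 12.67 and 12.68 in controls. As with Cdk1, RPA1 shRNA array 3 sat at the control level, and without it the difference of Mad2l1 was -0.21 (adjusted p = 0.0045). Ttk, the MPS1 kinase gene, differed by -0.05 ± 0.06 under RPA1 shRNA and 0.02 ± 0.06 under HSF1 shRNA.

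The largest fall under RPA1 shRNA among these genes was that of Cenpf, which encodes a large protein of the outer kinetochore. Cenpf read 9.64, 9.66 and 9.79 under RPA1 shRNA, 10.17, 10.06 and 10.10 under HSF1 shRNA and 10.10, 10.24 and 10.21 in controls. All RPA1 shRNA arrays lay below all others, and the HSF1 shRNA and control arrays overlapped. The difference was -0.48 ± 0.06 under RPA1 shRNA (1.4-fold, limma adjusted p = 0.00038) and -0.07 ± 0.06 under HSF1 shRNA (0.52). Cenpe, which encodes the kinetochore motor that carries chromosomes to the spindle equator, differed under HSF1 shRNA instead. It read 11.10, 11.12 and 11.09 under RPA1 shRNA, 10.83, 10.71 and 10.69 under HSF1 shRNA and 11.11 on each control array. Cenpe fell by 0.37 ± 0.05 under HSF1 shRNA (1.29-fold, adjusted p = 0.0013), and the difference under RPA1 shRNA was -0.01 ± 0.05 (0.92).

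Cenpa, the histone H3 variant of the centromere, read 11.41, 11.35 and 11.62 under RPA1 shRNA, 11.72, 11.59 and 11.61 under HSF1 shRNA and 11.70, 11.71 and 11.61 in controls. RPA1 shRNA arrays 1 and 2 lay below every control and array 3 did not. The difference under RPA1 shRNA was -0.21 ± 0.07 and missed the threshold (limma adjusted p = 0.059), and without array 3 it was -0.29 (0.0041). The NDC80 complex genes on the list, whose products bind microtubules at the kinetochore, did not pass. Ndc80, Nuf2 and Spc25 differed by -0.10 ± 0.06, -0.03 ± 0.06 and -0.05 ± 0.05 under RPA1 shRNA and by 0.07 ± 0.06, 0.12 ± 0.06 and 0.00 ± 0.05 under HSF1 shRNA.

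Spindle and cytokinesis genes held 1 call among 6 under each shRNA, 16.7%, against 30.1% of all genes under RPA1 shRNA and 16.1% under HSF1 shRNA. Nusap1, whose product bundles spindle microtubules, read 11.54, 11.55 and 11.31 under RPA1 shRNA, 11.60, 11.59 and 11.61 under HSF1 shRNA and 11.76, 11.69 and 11.79 in controls. Here RPA1 shRNA array 3 was the lowest of all 9. Nusap1 fell by 0.28 ± 0.07 under RPA1 shRNA (1.22-fold, limma adjusted p = 0.011), and the difference under HSF1 shRNA was -0.15 ± 0.07 (0.19), or 0.034 without RPA1 shRNA array 3. Tpx2, whose product activates Aurora A on the spindle, read 11.53, 11.57 and 11.56 under RPA1 shRNA, 11.54, 11.40 and 11.42 under HSF1 shRNA and 11.68, 11.69 and 11.69 in controls. All knockdown arrays lay below all controls. Tpx2 fell by 0.23 ± 0.05 under HSF1 shRNA (1.18-fold, adjusted p = 0.011), while the difference of -0.14 ± 0.05 under RPA1 shRNA did not pass (0.067). It passed without HSF1 shRNA array 1 (0.038). Prc1, which bundles midzone microtubules, differed by -0.18 ± 0.06 under RPA1 shRNA (0.062) and by -0.23 without RPA1 shRNA array 3 (0.013). Of the rest, the contractile ring gene Anln differed by 0.10 ± 0.05 and 0.13 ± 0.05, the RhoA activator gene Ect2 by 0.02 ± 0.05 and 0.11 ± 0.05, and the spindle gene Hmmr by -0.01 ± 0.06 and 0.10 ± 0.06 under RPA1 and HSF1 shRNA, and none passed.

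Both genes of mitotic chromosomes were lower under RPA1 shRNA. Mki67, which encodes the proliferation marker Ki-67 that coats mitotic chromosomes, read 11.98, 12.0 and 11.81 under RPA1 shRNA, 12.02, 11.90 and 11.84 under HSF1 shRNA and 12.17, 12.19 and 12.28 in controls. All knockdown arrays lay below all controls, and the knockdowns overlapped. The difference was -0.28 ± 0.07 under RPA1 shRNA (1.22-fold, limma adjusted p = 0.012) and -0.29 ± 0.07 under HSF1 shRNA (1.23-fold, 0.018). The RPA1 shRNA call was lost without control array 3 (0.052), and the HSF1 shRNA call without control array 3 (0.075) or HSF1 shRNA array 2 (0.061) or 3 (0.071). Top2a, which encodes the topoisomerase that untangles sister chromatids, read 12.43, 12.38 and 12.31 under RPA1 shRNA, 12.45, 12.45 and 12.39 under HSF1 shRNA and 12.60, 12.52 and 12.61 in controls. Again no knockdown array reached the controls. Top2a fell by 0.20 ± 0.05 under RPA1 shRNA (adjusted p = 0.013), and the difference of -0.15 ± 0.05 under HSF1 shRNA did not pass (0.086). Its RPA1 shRNA call was lost without control array 3 (0.053), and with the gene's dimmest row in place of its brightest the difference was -0.25 (0.42). The HSF1 shRNA difference of Top2a passed without RPA1 shRNA array 3 (0.046) and under quantile or median scaling (0.049 each).

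**Figure D2:**
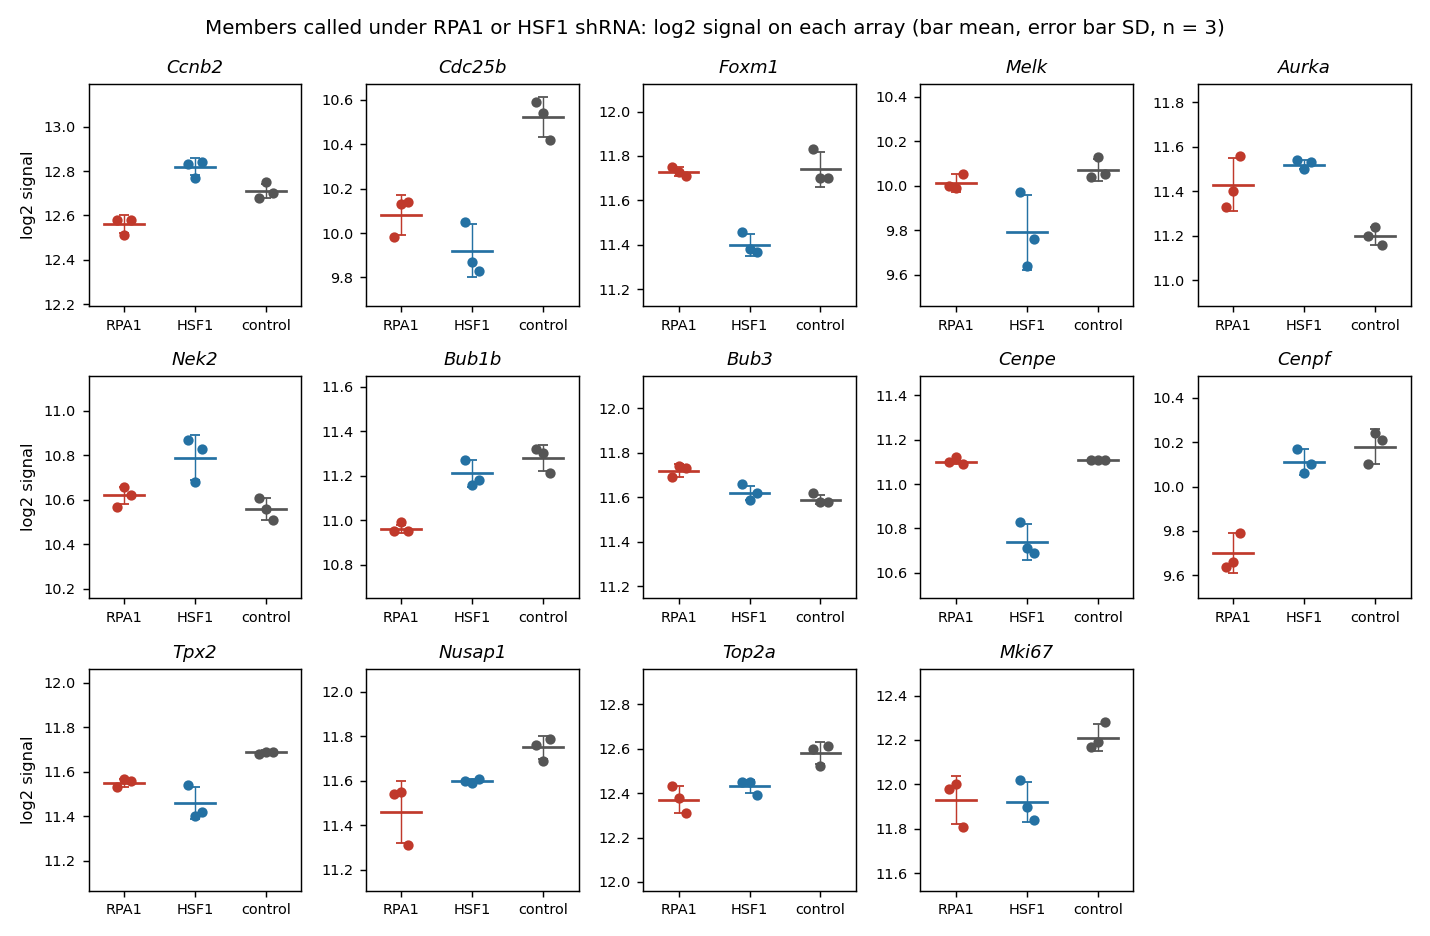
Log2 signal (y axis, a span of 1 log2 unit in every panel) of the genes called in at least 1 comparison with control, on each RPA1 shRNA, HSF1 shRNA and control array, with horizontal bars at the mean and error bars of 1 SD (n = 3). The RPA1 shRNA points of Cenpf and Bub1b and the HSF1 shRNA points of Foxm1 and Cenpe lie apart from the other 6 points of their panels, and Cdc25b, Aurka and Mki67 differ from the controls in both groups.

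Compared directly, RPA1 shRNA arrays were lower than HSF1 shRNA arrays for 7 of the 34 genes and higher for 2, 26.5% of the list, against 24.4% of all genes tested (14.7% lower and 9.71% higher). The median difference was -0.09, against -0.02 over all genes, and 0 of the 34 were called at 1.5-fold or more, against 4.57% of all genes. This split depended on the scaling. After quantile scaling 7 were lower and 6 higher, and after median scaling 5 were lower and 7 higher, while over all genes 39.8% of calls were higher as deposited, 48.6% after quantile scaling and 52.4% after median scaling. HSF1 shRNA array 1 had the highest median over the tested genes, 8.46, against 8.35 to 8.38 on the other 8 arrays. The genes lower under RPA1 shRNA than under HSF1 shRNA were Cenpf (-0.41 ± 0.06, limma adjusted p = 0.0016), Ccnb2 (-0.26 ± 0.05, 0.0036), Bub1b (-0.24 ± 0.05, 0.0082), Bub1 (-0.24 ± 0.05, 0.012), Mad2l1 (-0.25 ± 0.06, 0.015), Cdk1 (-0.20 ± 0.06, 0.025) and Plk1 (-0.22 ± 0.06, 0.027). For Bub1 the arrays read 12.13, 12.03 and 12.21 under RPA1 shRNA and 12.39, 12.36 and 12.33 under HSF1 shRNA, without overlap, and 12.21, 12.22 and 12.23 in controls. Cenpe (0.36 ± 0.05, 0.0010) and Foxm1 (0.33 ± 0.05, 0.0024) were higher under RPA1 shRNA. The calls of Cenpf, Ccnb2, Bub1, Bub1b, Cenpe and Foxm1 were kept under every alternative tried, the 2 scalings included. Those of Cdk1 and Plk1 were lost under median scaling (0.069 each) and without HSF1 shRNA array 1 (0.084 and 0.061), HSF1 shRNA array 2 (0.063 and 0.076) or RPA1 shRNA array 1 (0.092 and 0.083). Cdk1 was lost further without RPA1 shRNA array 2 (0.085) and Plk1 without HSF1 shRNA array 3 (0.075). Mad2l1 was lost without HSF1 shRNA array 2 (0.053) or RPA1 shRNA array 1 (0.060) or 2 (0.053). Without RPA1 shRNA array 1 the count lower was 4, and without RPA1 shRNA array 3 it was 12, with Aurka (0.037), Cenpa (0.0085), Ndc80 (0.036), Nuf2 (0.018) and Prc1 (0.016) added. Over all genes, 3228 and 6539 were called in the same order, against 4863 with every array. Melk was higher under RPA1 shRNA by 0.31 without HSF1 shRNA array 1 (0.010), and Nek2 differed by -0.23 without HSF1 shRNA array 2 (0.025). In all, 16 of the 34 genes passed in none of the 3 comparisons. The same share over all genes was not worked out, so this count cannot be called high or low.

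**Figure D3:**
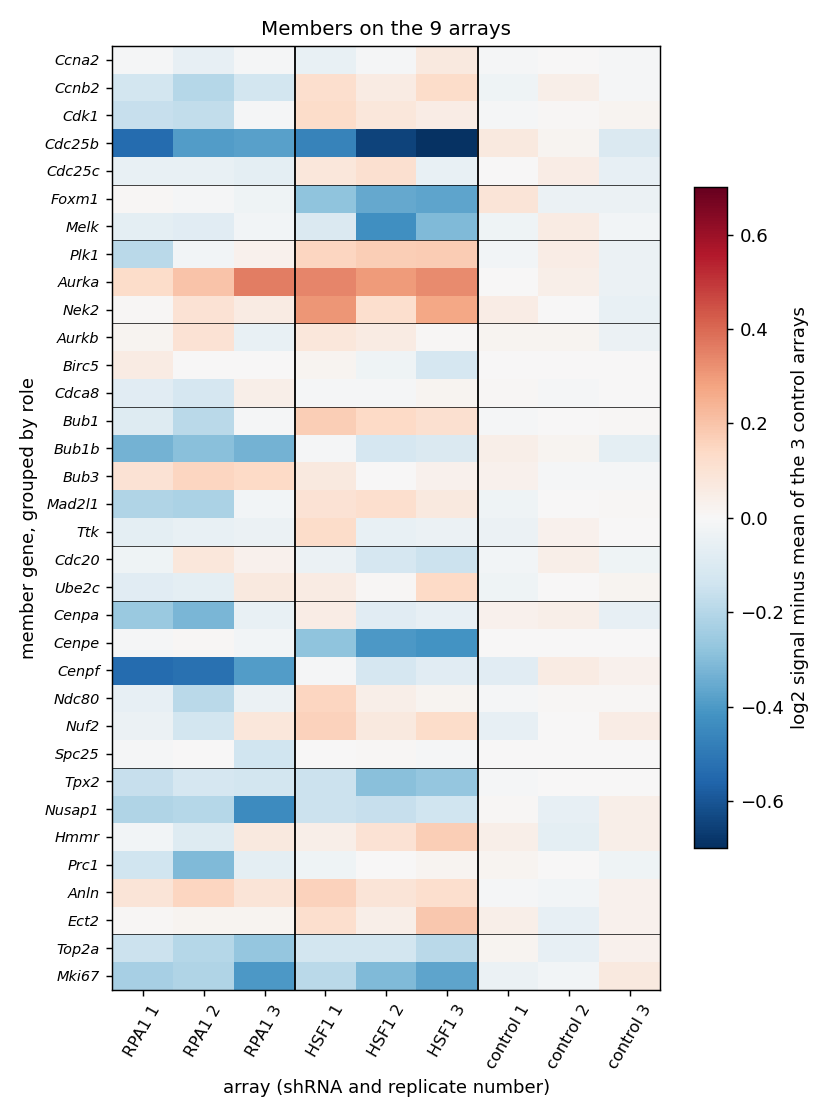
Log2 signal minus the mean of the 3 control arrays (colour, red higher and blue lower) for each of the 34 measured genes (rows, grouped by role) on the RPA1 shRNA, HSF1 shRNA and control arrays (columns). Cdc25b and Cenpf are the darkest blue under RPA1 shRNA, Cdc25b, Foxm1 and Cenpe are blue under HSF1 shRNA, and for Cdk1, Mad2l1 and Cenpa the third RPA1 shRNA array is paler than the other two.

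Other genes of the same processes were taken from 6 lists written for this comparison, of which 148 of 152 genes were tested. Under RPA1 shRNA 18 of the 148 were called higher and 49 lower, 45.3%, against 30.1% of all genes. Under HSF1 shRNA 11 were higher and 21 lower, 21.6%, against 16.1%. The median size of the difference over the 148 was 0.18 under RPA1 shRNA and 0.11 under HSF1 shRNA, against 0.12 and 0.09 over all genes. The 95% interval lay within 1.5-fold for 80.4% and 94.6% of them, against 84.3% and 91.7% of all genes. Without RPA1 shRNA array 3, 28 were higher under RPA1 shRNA. The HSF1 shRNA counts ran from 6 to 17 higher and from 11 to 30 lower over the arrays left out, with the lowest of both without control array 1 and 17 higher without RPA1 shRNA array 3. A list of 25 tested origin licensing and S phase genes gave 4 higher and 6 lower under RPA1 shRNA and 2 higher and 5 lower under HSF1 shRNA, 40% and 28% called against 30.1% and 16.1% of all genes.

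Cohesin and condensin, the ring complexes that hold sister chromatids together and compact chromosomes, had 0 of 20 genes higher and 12 lower under RPA1 shRNA, with a median of -0.19, and 0 higher and 4 lower under HSF1 shRNA, with a median of -0.09. That is 60% and 20% called, against 30.1% and 16.1% of all genes. The cohesin subunit gene Stag2 read 10.04, 9.83 and 10.57 under RPA1 shRNA, against 10.81, 10.74 and 10.84 in controls (-0.65 ± 0.15, limma adjusted p = 0.0086), so that array 3 lay between the other RPA1 shRNA arrays and the controls. Its relative Stag1 fell by 0.36 ± 0.07 (0.0030), and the condensin genes Ncapg2 and Ncapd2 fell by 0.38 ± 0.06 (0.00091) and 0.36 ± 0.06 (0.0013). Under HSF1 shRNA the largest falls were those of Ncapd2 (-0.48 ± 0.06, 0.00079) and the cohesin core gene Smc1a (-0.32 ± 0.06, 0.0072). Ncapg and Ncaph2 were at -0.19 ± 0.06 and -0.18 ± 0.05 (0.049 each), and both were lost without any single control or HSF1 shRNA array (0.052 to 0.16) and without RPA1 shRNA array 1 (0.066 and 0.054), and Ncaph2 also without RPA1 shRNA array 2 (0.060). Under RPA1 shRNA Ncaph2 fell by 0.35 ± 0.05 (0.0011), and Ncapg was at -0.18 ± 0.06 (0.031), lost without any single control array (0.061 to 0.11) or RPA1 shRNA array 1 (0.058) or 2 (0.098). The count lower under RPA1 shRNA was 7 without control array 2, control array 3 or RPA1 shRNA array 1, and under HSF1 shRNA it was 2 without any single control or HSF1 shRNA array or without RPA1 shRNA array 1.

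Of 32 other kinetochore and centromere genes, 2 were higher and 12 lower under RPA1 shRNA, and 2 were higher and 6 lower under HSF1 shRNA, 43.8% and 25.0% called against 30.1% and 16.1% of all genes. The count higher under RPA1 shRNA was 5 without RPA1 shRNA array 3 and 1 without any single other array, and under HSF1 shRNA it was 1 without control array 1 or 3 or HSF1 shRNA array 3. Cenpl, Cenpm and Oip5 are centromere genes, the last encoding a loading factor of CENP-A. Cenpm fell by 0.60 ± 0.06 under RPA1 shRNA (limma adjusted p = 8e-05) and by 0.42 ± 0.06 under HSF1 shRNA (0.0018). Cenpl fell by 0.56 ± 0.08 (0.00064) and by 0.57 ± 0.08 (0.0016), reading 8.2, 8.15 and 8.36 under RPA1 shRNA, 8.36, 8.24 and 8.07 under HSF1 shRNA and 8.76, 8.85 and 8.78 in controls. Oip5 fell by 0.57 ± 0.08 under RPA1 shRNA (0.00060) and by 0.36 ± 0.08 under HSF1 shRNA (0.015), the HSF1 shRNA call being lost without control array 1 (0.051) or 3 (0.058). Cenpp, another centromere gene, fell by 0.52 ± 0.10 under RPA1 shRNA (0.0038). Kntc1, a checkpoint gene of the outer kinetochore, fell by 0.32 ± 0.08 under RPA1 shRNA (0.012) and by 0.37 ± 0.08 under HSF1 shRNA (0.011). Zwint, which encodes a partner of the same proteins, rose under HSF1 shRNA by 0.36 ± 0.08 (0.015), a call lost without control array 1 (0.061) or 3 (0.057) or HSF1 shRNA array 2 (0.052) or 3 (0.062).

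Of 44 other spindle, centrosome and cytokinesis genes, 3 were higher and 16 lower under RPA1 shRNA, and 2 were higher and 6 lower under HSF1 shRNA, 43.2% and 18.2% called against 30.1% and 16.1% of all genes. Aspm, which encodes a spindle pole protein, read 9.83, 9.86 and 9.92 under RPA1 shRNA, 10.18, 9.95 and 9.94 under HSF1 shRNA and 10.43, 10.48 and 10.54 in controls. It fell by 0.62 ± 0.07 (limma adjusted p = 0.00018) and by 0.46 ± 0.07 (0.0025). The augmin genes Haus1 and Haus7, whose products branch spindle microtubules, fell by 0.54 ± 0.06 (0.00018) and 0.52 ± 0.09 (0.0016) under RPA1 shRNA, and the kinase gene Nek7 by 0.49 ± 0.08 (0.0015). Under HSF1 shRNA Haus1 was at -0.27 ± 0.06 (0.016), lost without control array 1 (0.059) or 3 (0.053) or HSF1 shRNA array 3 (0.051), and Nek7 at -0.27 ± 0.08 (0.047), lost without any single control or HSF1 shRNA array (0.081 to 0.15) or RPA1 shRNA array 1 (0.067). The microtubule destabilizer gene Stmn1 fell by 0.48 ± 0.06 under RPA1 shRNA (0.00038) and by 0.37 ± 0.06 under HSF1 shRNA (0.0040). The dynein partner gene Ndel1 rose by 0.48 ± 0.06 under RPA1 shRNA (0.00019) and by 0.31 ± 0.06 under HSF1 shRNA (0.0057). The HSF1 shRNA counts were 6 higher and 10 lower without RPA1 shRNA array 3, and 2 or 3 were lower without any single control or HSF1 shRNA array. The count higher was 1 without control array 1 or HSF1 shRNA array 1 or 2. Psrc1 fell under HSF1 shRNA by 0.49 ± 0.12 (0.023), a call lost without any single control or HSF1 shRNA array (0.051 to 0.092).

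Of 17 APC/C genes and partners, 0 were higher and 6 lower under RPA1 shRNA, and 0 were higher and 3 lower under HSF1 shRNA, 35.3% and 17.6% called, near the 30.1% and 16.1% of all genes. Under RPA1 shRNA the subunit genes Anapc4, Anapc2 and Cdc16 fell by 0.50 ± 0.11 (limma adjusted p = 0.0057), 0.39 ± 0.07 (0.0022) and 0.35 ± 0.05 (0.00093). Fbxo5, which encodes the APC/C inhibitor EMI1, was at -0.33 ± 0.11 (0.046) under RPA1 shRNA and at -0.46 ± 0.11 (0.018) under HSF1 shRNA. Both calls of Fbxo5 were lost without control array 1 (0.12 and 0.065) or control array 2 (0.13 and 0.064), and the difference under RPA1 shRNA was -0.21 without RPA1 shRNA array 3 (0.091). The RPA1 shRNA call was lost too without control array 3 (0.077), HSF1 shRNA array 2 (0.065) or 3 (0.059) or RPA1 shRNA array 1 (0.082), and the HSF1 shRNA call without HSF1 shRNA array 2 (0.068) or 3 (0.071). Under HSF1 shRNA Anapc5 fell by 0.25 ± 0.05 (0.0060), and Anapc7 was at -0.23 ± 0.07 (0.045), lost without any single control array (0.082 to 0.15) or HSF1 shRNA array 2 (0.12) or 3 (0.15). The count lower under HSF1 shRNA was 1 without control array 1 or 2 or HSF1 shRNA array 2 or 3, and 2 were higher under RPA1 shRNA without RPA1 shRNA array 3.

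Of 17 other G2/M entry genes, 5 were higher and 1 lower under each shRNA, 35.3% called, against 30.1% of all genes under RPA1 shRNA and 16.1% under HSF1 shRNA. Gtse1, which encodes a G2 and S phase protein that binds p53 and microtubules, read 10.64, 10.75 and 10.47 under RPA1 shRNA, 9.84, 9.86 and 9.92 under HSF1 shRNA and 9.46, 9.56 and 9.47 in controls. No arrays overlapped between groups, and it rose by 1.12 ± 0.07 (limma adjusted p = 8.3e-06) and 0.38 ± 0.07 (0.0066). The stress-induced gene Gadd45g rose by 0.68 ± 0.13 (0.0030) and 0.62 ± 0.13 (0.010), and the phosphatase gene Cdc25a rose by 0.58 ± 0.06 under RPA1 shRNA (0.00012) and 0.34 ± 0.06 under HSF1 shRNA (0.0058). Ccnf, which encodes cyclin F, rose by 0.42 ± 0.08 under RPA1 shRNA (0.0027), and its difference under HSF1 shRNA was 0.16 ± 0.08 (0.20). Gadd45b rose by 0.26 ± 0.05 under RPA1 shRNA (0.0058) and by 0.45 ± 0.05 under HSF1 shRNA (0.00079). Pkmyt1, a kinase gene whose product adds the inhibitory phosphates to CDK1, fell by 0.35 ± 0.05 under RPA1 shRNA (0.00099) and by 0.41 ± 0.05 under HSF1 shRNA (0.0013). Without RPA1 shRNA array 3 the counts under RPA1 shRNA were 8 higher and 2 lower, and under HSF1 shRNA 2 were lower.

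A list of 18 regulator genes held those of DREAM, MuvB and B-MYB together with Rb1, E2f7, E2f8 and the NF-Y genes Nfya, Nfyb and Nfyc. Of the 18, 8 were higher and 2 lower under RPA1 shRNA, and 2 were higher and 1 lower under HSF1 shRNA. That is 55.6% and 16.7% called, against 30.1% and 16.1% of all genes. Rb1, the retinoblastoma gene, read 11.46, 11.50 and 10.94 under RPA1 shRNA, against 10.52, 10.54 and 10.59 in controls (0.75 ± 0.12, limma adjusted p = 0.0015). The repressor gene E2f8 read 11.46, 11.53 and 10.74 under RPA1 shRNA, against 10.59, 10.58 and 10.60 in controls (0.65 ± 0.17, 0.016). In both genes array 3 lay much nearer to the controls than the other RPA1 shRNA arrays did. The E2f8 call was lost without control array 1 (0.050) or 2 (0.054) or RPA1 shRNA array 1 (0.066) or 2 (0.058). Rbl2, which encodes the p130 subunit of DREAM, fell by 0.54 ± 0.07 under RPA1 shRNA (0.00042), and Tfdp2, an E2F partner gene, fell by 0.56 ± 0.06 under RPA1 shRNA (0.00010) and by 0.41 ± 0.06 under HSF1 shRNA (0.0019). E2f4 and E2f7 rose under HSF1 shRNA by 0.30 ± 0.07 (0.018) and 0.18 ± 0.05 (0.031), and both calls were lost without any single control array (0.054 to 0.10) and without HSF1 shRNA array 1 (0.059 and 0.075) or 3 (0.063 and 0.10), and that of E2f7 also without HSF1 shRNA array 2 (0.054). Under RPA1 shRNA E2f4 was at 0.28 ± 0.07 (0.015), lost without control array 3 (0.050), and E2f7 at 0.17 ± 0.05 (0.026), lost without control array 2 (0.077) or 3 (0.084) or RPA1 shRNA array 2 (0.084). The count higher under RPA1 shRNA was 5 without control array 1, 2 or 3 or RPA1 shRNA array 2, and under HSF1 shRNA it was 0 without any single control array or without HSF1 shRNA array 1 or 3, and 1 without HSF1 shRNA array 2. There 2 were lower without HSF1 shRNA array 1 or RPA1 shRNA array 3.

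Among the S phase genes Ccne1, which encodes cyclin E1, rose by 1.28 ± 0.05 under RPA1 shRNA (limma adjusted p = 1.5e-06), reading 11.45, 11.59 and 11.46 against 10.17, 10.26 and 10.22 in controls, and by 0.37 ± 0.05 under HSF1 shRNA (0.0019). Of the GINS genes of the replicative helicase, Gins4, Gins1 and Gins2 fell under RPA1 shRNA, by 0.54 ± 0.06 (0.00012), 0.45 ± 0.10 (0.0055) and 0.41 ± 0.06 (0.0012). Under HSF1 shRNA the thymidine kinase gene Tk1 fell by 0.38 ± 0.07 (0.0075), the licensing gene Cdt1 by 0.38 ± 0.06 (0.0043) and the helicase gene Mcm7 by 0.35 ± 0.07 (0.010). Cdt1 was at -0.19 ± 0.06 under RPA1 shRNA (0.047), lost without any single control array, HSF1 shRNA array 2 or 3, or RPA1 shRNA array 1 or 3 (0.064 to 0.13). Without RPA1 shRNA array 3 the counts were 7 higher under RPA1 shRNA and 10 lower under HSF1 shRNA, and without control array 2 the count lower under RPA1 shRNA was 3. Without control array 3 the count higher under HSF1 shRNA was 1.

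**Figure D4:**
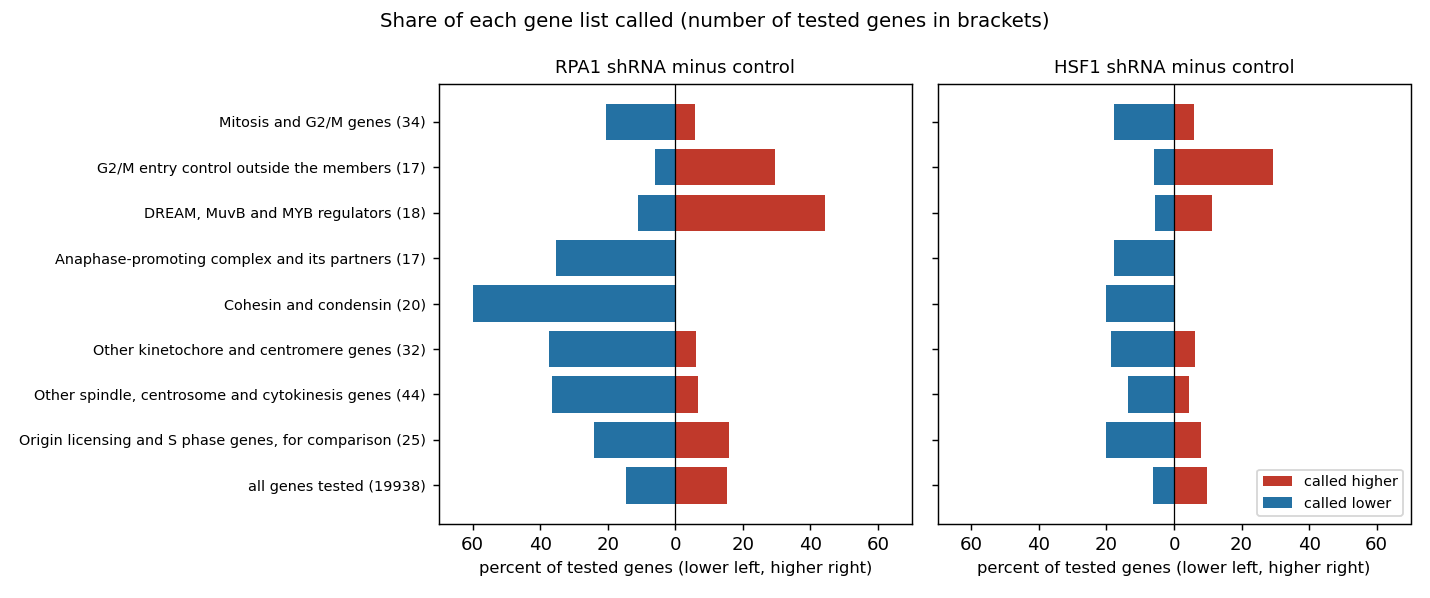
Percent of the tested genes of each list called higher (red, to the right) or lower (blue, to the left) under RPA1 shRNA and under HSF1 shRNA against control, with the number of tested genes in brackets and all 19938 genes at the bottom. Cohesin and condensin have the longest blue bar under RPA1 shRNA, 12 of 20 genes, and the Mitosis and G2/M genes have 7 of 34 there.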

How the data were processed

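The 9 Affymetrix arrays were grouped by the shRNA named in the labels, 3 per group. The deposited values are log2 signals, made by the authors with RMA in Partek 6.5 per the submitters' processing notes; the notes do not state the scale, and log2 was inferred from the range of the values. They were used as deposited, with array medians of 7.72 to 7.81. RMA normalizes the arrays against each other, which can shrink small differences. Of 35557 rows, 21789 had 1 gene symbol, 1621 had several and 12147 are unnamed here, and the brightest row per gene left 19938 genes. Group means were fitted to all 9 arrays in limma 3.58.1 under R 4.3.3 (6 residual and 3.51 prior degrees of freedom), followed by eBayes and Benjamini-Hochberg adjustment over all genes. Calls are two-sided at an adjusted p below 0.05. The value after ± is limma's standard error of the difference (n = 3 per group), which the 95% intervals use as well. An exact test of 3 arrays against 3 cannot go below p = 0.1, so calls rest on limma's variance model, and p-values measure only the spread between these samples, which may be technical. The number of arrays limits the precision. The fit was tested on simulated data with known changes.

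The members, the other lists, the markers and the rule for named genes were chosen with earlier results of these data known. The rule described every member by role and named, from each other list, at most the 4 called genes with the largest difference under each shRNA. Alternatives were quantile and median scaling, only the brighter genes, the dimmest row per gene, only the 6 arrays compared, a trended robust variance model, array weights, a replicate block and each array left out. Their use on the counts of the other lists, and on named genes under the other shRNA, was added after the values were seen. Whether the replicate numbers pair the arrays is not given in the labels. Deviations from the group mean correlated from -0.159 to 0.093 over the 9 pairs of arrays with the same number. Over the 18 other pairs they correlated from -0.163 to 0.163. With so few arrays per group, these correlations cannot decide whether the numbers pair the arrays.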

Additional observations from a re-analysis of the deposited data

How the results depend on the processing

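Of the members' differences under the alternatives, 536 stayed on their side of the threshold under RPA1 shRNA, 17 gained a call and 25 lost one. Under HSF1 shRNA these numbers were 548, 15 and 15, and between RPA1 and HSF1 shRNA 533, 29 and 16. No call changed direction. Of the 536, 548 and 533 that stayed on their side, 14, 20 and 10 changed sign, none of them called. With array weights, which down-weight unlike arrays, 9065 genes were called under RPA1 shRNA, 5313 under HSF1 shRNA and 7926 between them, with 13 members lower under RPA1 shRNA, 4 higher under HSF1 shRNA and 15 lower in RPA1 than in HSF1 shRNA arrays. With only the 6 arrays compared, 1 member was higher under RPA1 shRNA, 4 were higher under HSF1 shRNA and 4 were lower in RPA1 than in HSF1 shRNA arrays. With the dimmest row per gene 1 was higher under RPA1 shRNA. In the direct comparison 6 were higher after quantile scaling and 7 after median scaling. Leaving out 1 array in turn gave 4642 to 7245 genes called under RPA1 shRNA with 0 to 1 members higher and 4 to 11 lower, 1953 to 4696 genes under HSF1 shRNA with 1 to 3 higher and 4 to 8 lower, and 3228 to 6539 genes between them with 2 to 3 higher and 4 to 12 lower. The cause of these shifts was not tested.

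With the replicate number as a block, 5692, 2799 and 4414 genes were called in the 3 comparisons. Members were 1 higher and 6 lower under RPA1 shRNA, 1 higher and 5 lower under HSF1 shRNA, and 2 higher and 7 lower in RPA1 than in HSF1 shRNA arrays. It is not known whether the numbers pair the arrays, so this is a check and not a paired analysis.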
